A study of Papilio xuthus with 10 samples.

Results

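The genes described here are those of the swallowtail butterfly *Papilio xuthus* whose RNA was most abundant in the 2nd instar larva. A gene was taken when its RPKM (reads per kilobase of gene, scaled to library size) was 5 or more in the 2nd instar, and when RPKM + 1 there was at least 3 times RPKM + 1 in each of the 9 other libraries. This held for 99 of the 15123 genes in the deposited table, or 0.655%, and for 1.59% of the 6227 genes that reached the minimum of 5 there. The libraries were made from whole bodies and covered development in 10 steps of 1 library each, namely egg, larvae of the 5 instars, pupae of either sex and adults of either sex. By the methods of the study, the egg library and those of the 1st and 2nd instars were pools of several animals, whereas each later library came from a single animal, and larvae were fed a plant of the citrus family. The 2nd instar was thus a pool and the 3rd was not, so that pooling and stage cannot be told apart between them. The labels give no strain, treatment, or hour within the instar. Since every column entered the rule, the levels below are a description and carry no test, and without replicates the variation between animals is unknown.

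An instar is the period between one larval moult and the next. At each moult the larva lays down a new cuticle beneath the old one, which is then shed, under pulses of the moulting hormone ecdysone, while juvenile hormone keeps the moult a larval one. In between, a caterpillar mostly feeds and grows, so that gut, fat body and epidermis make up much of its body. In *P. xuthus* the young instars are dark with pale marks and resemble bird droppings, and the last instar is green. A whole-body library mixes all of these tissues, and fewer cells of a type and less RNA per cell cannot be told apart in it. Genes carry an identifier and no name in the table, and a search of the 13139 RefSeq genes of assembly Pxut_1.1 matched 0 of these identifiers. No function and no sequence is therefore given for any gene here.

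The 2nd instar library had a total of 27233231 reads, as recovered from the steps between RPKM values, and all 10 lay between 23378656 and 35161755. Summed over genes, the 2nd instar had reads equal to 154% of its total, against 124% to 142% in instars 3 to 5 and between 76.5% and 98.6% in the rest, and the 10 most abundant genes held 51.3% of summed RPKM in the 2nd instar. The upper quartile of RPKM was 12.9 in the 2nd instar, below the 14.7 to 29.6 of the other libraries. The egg and 1st instar libraries were also more alike than the others. Their Spearman's rho across all genes, which are not independent replicates, was 0.976, against at most 0.915 for any other pair of libraries, and 12 genes in the table differed 3-fold or more between them.

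The 99 genes had a median RPKM of 79.3 in the 2nd instar, with a lowest value of 6.93 and a highest of 96773. Recovered reads there ran from 47 to 2110978, with a median of 3011. Of the genes, 17 had an RPKM of 1000 or more, 28 lay between 100 and 1000, 48 between 10 and 100, and 6 below 10. The same genes had a median RPKM of 2.78 in eggs, 3.27 at the 1st instar, 1.72 at the 3rd, 0.943 at the 4th and 1.46 at the 5th. Female and male pupae gave medians of 1.65 and 1.24, and female and male adults 0.479 and 0.661. Over all genes the median was 3.06 in the 2nd instar and between 4.19 and 9.22 elsewhere. Outside the 2nd instar these genes thus had medians below those of the table as a whole. The rule capped them in these libraries, so this describes the selection.

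**Figure D1:**
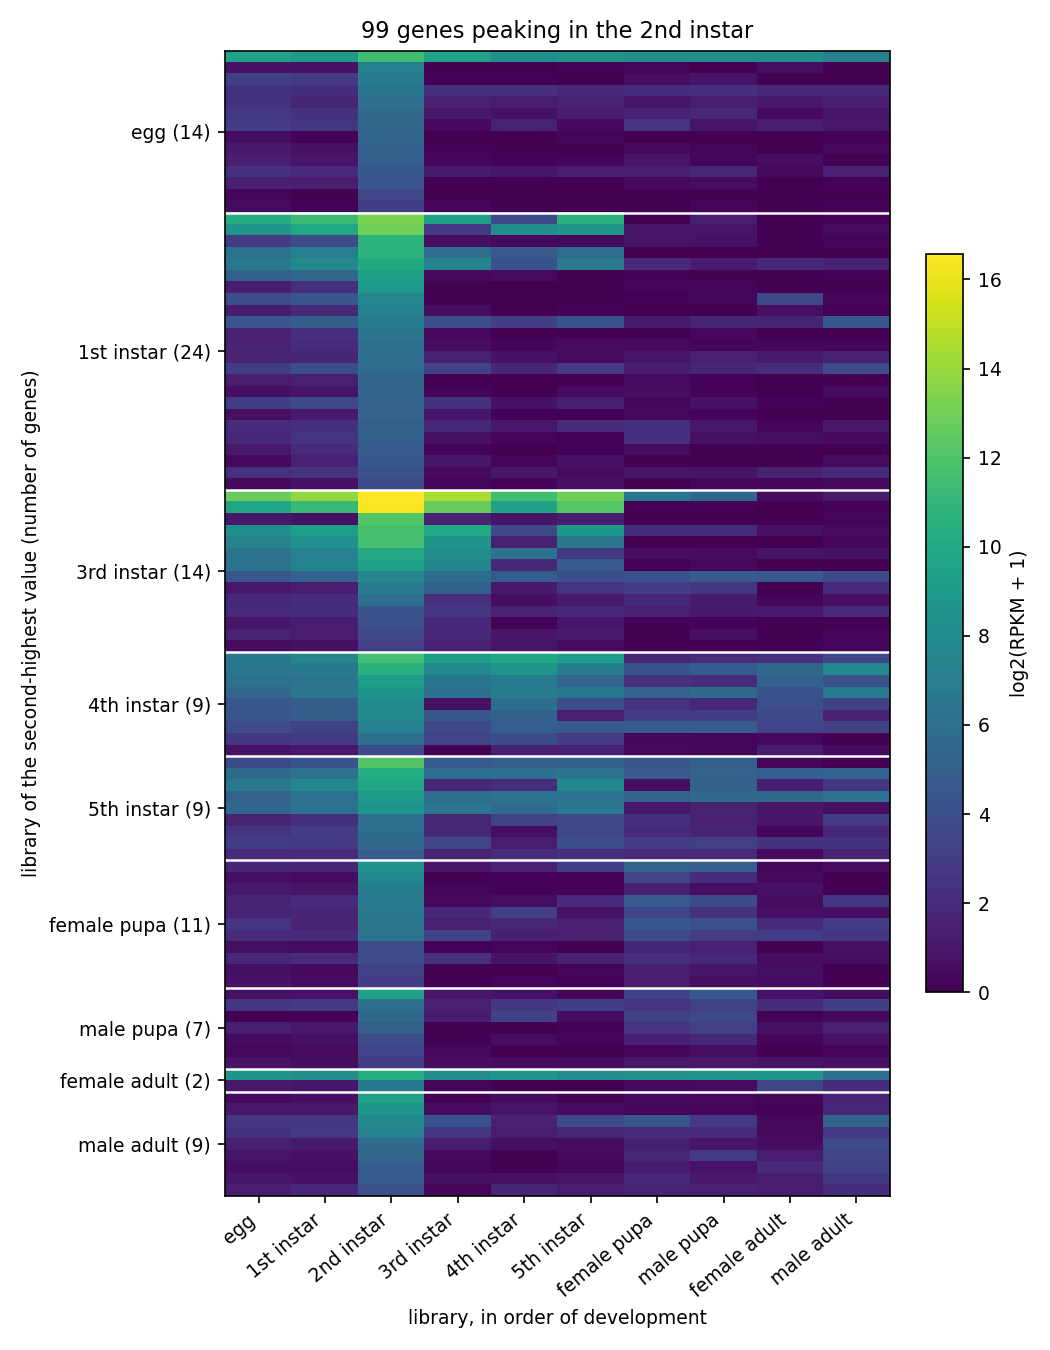
Heat map of log2(RPKM + 1) for the 99 genes (rows) in the 10 libraries (columns, in order of development), with rows grouped by the library of their second-highest value and sorted within groups by the 2nd instar level. The 2nd instar column is the brightest in every row, as the rule requires, at RPKM values of 6.93 to 96773.

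The ratio of RPKM + 1 between the 2nd instar and the second-highest library had a median of 5.57. It was under 5 in 44 genes, between 5 and 10 in 26, between 10 and 100 in 23, and 100 or more in 6. The 2nd instar held 65.9% of a gene's RPKM summed over the 10 libraries at the median, 50% or more in 87 genes and 90% or more in 18. Tau, an index that is 0 for equal log2(RPKM + 1) in all libraries and 1 for expression in a single library, was 0.8 or more in 35 genes. The second-highest RPKM was under 10 in 54 genes and 100 or more in 17. The rule itself favours a high ratio, a high share in the 2nd instar and a high tau, so these counts are a description. No counts over all genes were set beside them.

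Against the neighbouring instars alone, the 2nd instar was higher than the 1st by a median ratio of 10.3 and higher than the 3rd by a median ratio of 15.8, both on RPKM + 1. In 46 of the 99 genes it was 10-fold or more above both neighbours, and in 9 it was 100-fold or more above both. Over the table, the 2nd instar was 3-fold or more above the egg in 4.15% of genes, above the 1st instar in 3.62%, above the 3rd in 4.26%, above the 4th in 7.32% and above the 5th in 6.53%. For female and male pupae this was 8.31% and 8.34%, and for female and male adults 9.31% and 8.55%. The rule itself used these contrasts, so nothing is read from them about the 99 genes.

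In the 2nd instar the 99 genes held 10.1% of summed RPKM. They held 1.3% in eggs, 2.06% at the 1st instar, 1.66% at the 3rd, 0.389% at the 4th and 0.880% at the 5th, and at most 0.121% in any pupa or adult. A pair of genes made up most of this share. RR46_11029 and RR46_06414 ranked 5th and 6th of all genes in the 2nd instar and together held 7.70% of summed RPKM, against 2.44% for the other 97 genes.

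RR46_11029 had the highest level of the group. Ranges in brackets are Clopper-Pearson 95% intervals and cover counting error only. They treat reads as draws from the library total, which reads summed over genes exceeded in the 2nd to the 5th instar. For these libraries the intervals are therefore approximate. Its RPKM was 7029 in eggs, 14874 at the 1st instar, 96773 (96647 to 96898) at the 2nd, 22492 at the 3rd, 2825 at the 4th and 7609 at the 5th. Female and male pupae had 85.6 and 47.2, and female and male adults 0.427 and 1.28. It was thus abundant in the egg and all instars, 4.30-fold above the 3rd instar at its peak. RR46_06414 had 905 in eggs, 2444 at the 1st instar, 91687 (91463 to 91911) at the 2nd, 6797 at the 3rd, 755 at the 4th and 4626 at the 5th. In pupae and adults RR46_06414 had at most 1 read per library, and 0 reads in the female adult. Both genes were lower in the 4th instar than in the 3rd and the 5th.

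The highest ratio belonged to a gene that was almost silent in the other libraries. RR46_02661 had an RPKM of 4481 in the 2nd instar (4456 to 4507, 116060 reads), and its next value was 2.05 in the 3rd instar (1.55 to 2.67, 55 reads). It had 1.11 in eggs, 0.672 at the 1st instar, 0.930 at the 4th, 1.35 at the 5th, 0.168 in the male adult, and 0 reads in both pupae and the female adult. The ratio of RPKM + 1 was 1469, and 99.9% of the RPKM of the gene over all libraries lay in the 2nd instar. RR46_02635 came next, with an RPKM of 792 (783 to 800) at its peak. The male adult followed with 2.12 (1.75 to 2.55), a ratio of 254, and the rest had at most 0.579.

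**Figure D2:**
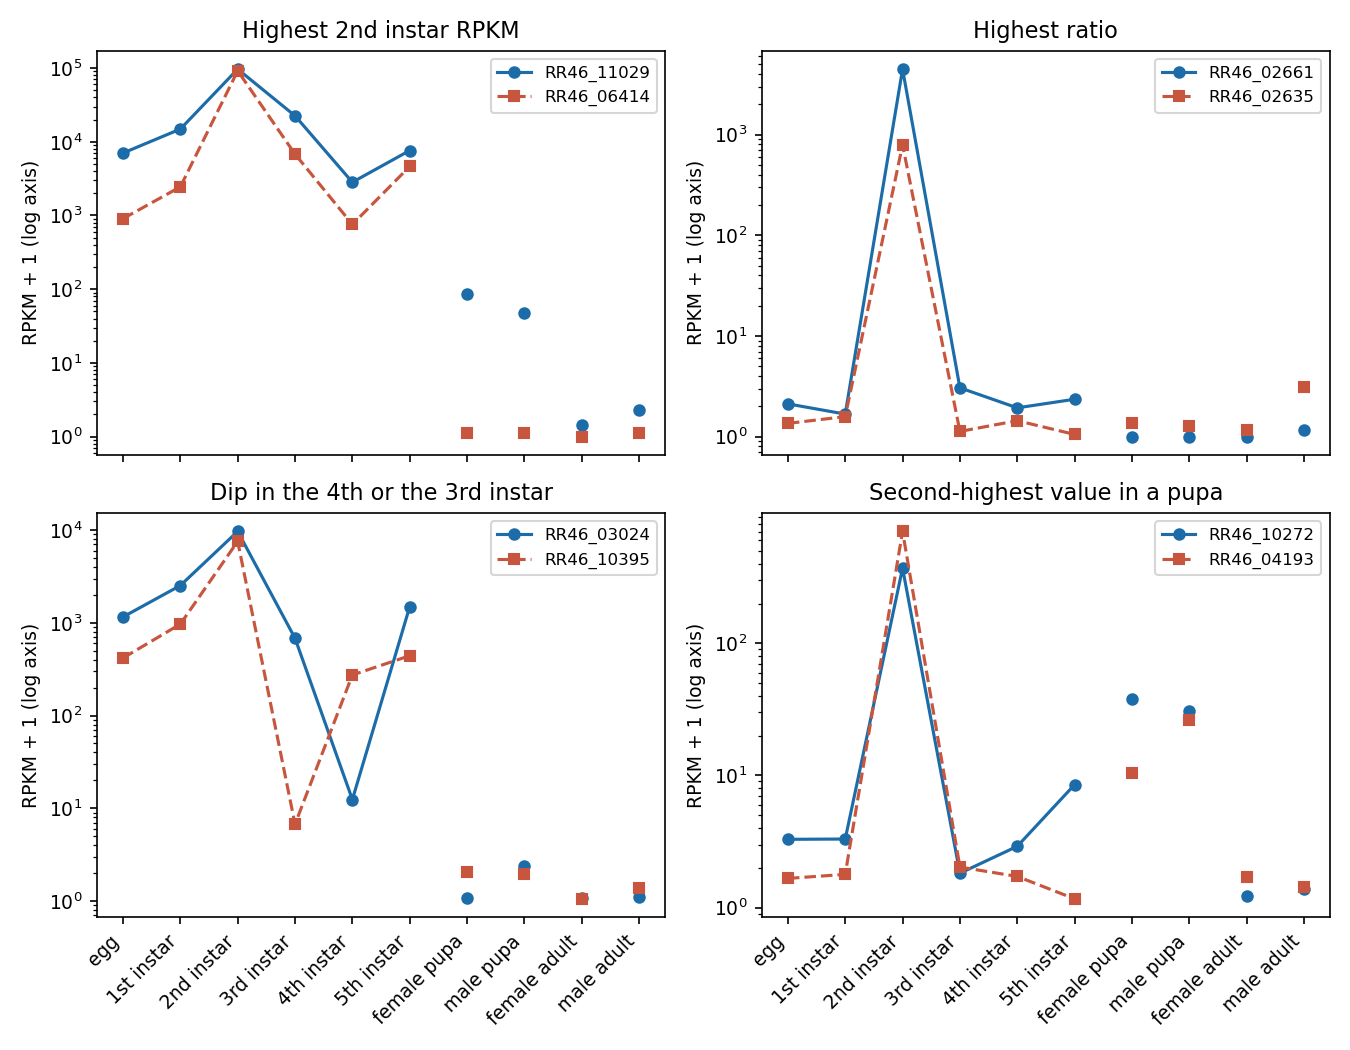
RPKM + 1 (log axis) in the 10 libraries, in order of development, for 8 of the 99 genes in 4 panels; points are single libraries, and lines join the egg and larval libraries only. RR46_02661 and RR46_02635 stand at 4481 and 792 in the 2nd instar and at 2.12 or less elsewhere, whereas RR46_11029 and RR46_06414 have 755 or more from the egg through the 5th instar.

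The library of the second-highest value was used to describe where else the genes were expressed. This was the egg or the 1st instar for 38 of the 99 genes, the 3rd, 4th or 5th instar for 32, and a pupa or an adult for 29. Over the 6227 genes that reached the minimum, the highest of the 9 other libraries was the egg or 1st instar in 19.9%, a later instar in 23.0% and a pupa or adult in 57.0%. For the 99 genes these shares were 38.4%, 32.3% and 29.3%. The split depended on scaling. At the same sum, 53 of the 99 genes had the egg or 1st instar in second place and 36 a pupa or adult, and the remainder a later instar. At the same upper quartile, 31 had the egg or 1st instar, 22 a pupa or adult and the remainder a later instar. The largest contrast in the deposited values was in the female adult, second-highest for 2.02% of the 99 genes against 26.0% of the genes with that minimum. The rule capped this highest value for the 99 genes and not for the 6227, so nothing is read from these shares.

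**Figure D3:**
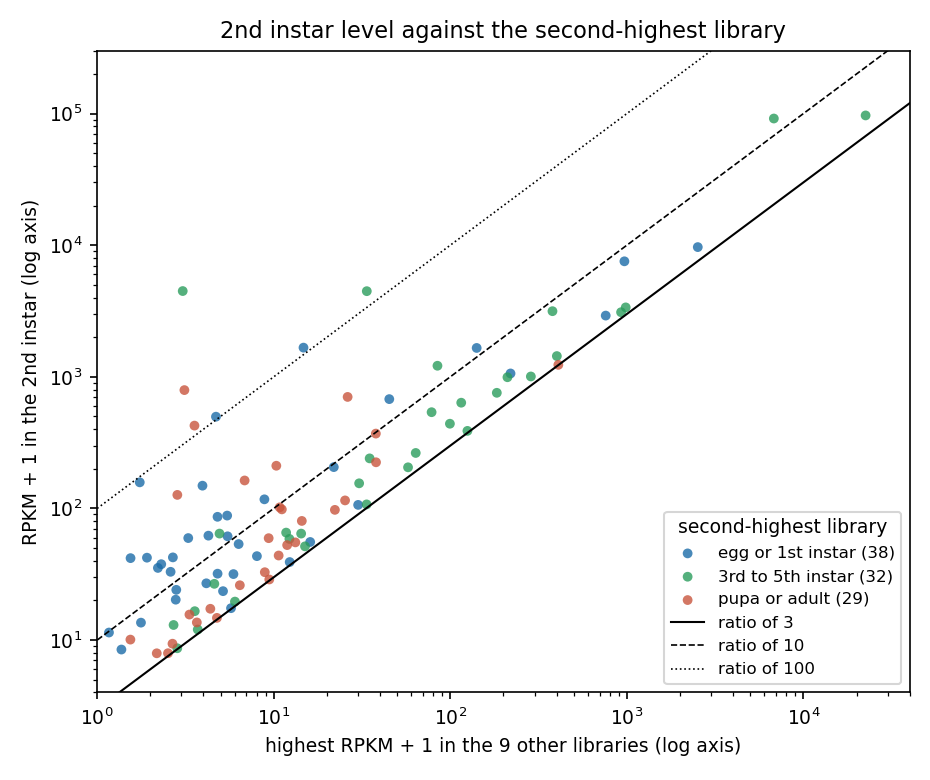
RPKM + 1 in the 2nd instar against the highest RPKM + 1 of the 9 other libraries (both axes log), 1 point per gene, coloured by the stage of the second-highest library, with lines at ratios of 3, 10 and 100. All 99 points lie above the line at 3 by selection, and 6 lie above the line at 100.

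Genes with the 1st instar in second place were the most numerous, at 24, with a median ratio of 9.0, and another 14 had the egg in second place, with a median ratio of 10.5. RR46_03024 had 1154 in eggs, 2520 at the 1st instar, 9668 at the 2nd, 679 at the 3rd, 11.4 at the 4th and 1487 at the 5th, and at most 1.38 in pupae and adults. RR46_10395 had 416 in eggs, 967 at the 1st instar, 7540 at the 2nd, 5.74 at the 3rd, 273 at the 4th and 440 at the 5th, and at most 1.03 in pupae and adults. Both had a low instar after the 2nd, the 4th in RR46_03024 and the 3rd in RR46_10395, with higher values on either side of it. Of the genes second-highest in the egg, RR46_14186 was high in every library, with 2917 (2883 to 2952) in the 2nd instar, 758 (742 to 774) in the egg, the same rounded value in the 3rd instar, and no value under 148, that of the male adult. RR46_08207 was its opposite, with 157 (153 to 160) in the 2nd instar and at most 0.742 (0.543 to 0.990), in the egg, elsewhere.

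Between the egg and the 1st instar, 0 of the 99 genes differed 3-fold or more, against 0.00661% of all genes higher and 0.0727% lower in the 1st instar. The likeness of these libraries across all genes stands beside this count, and its part in it was not tested.

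Genes with a later instar in second place had higher levels, with a median RPKM of 325 in the 2nd instar, against 53.6 for those with the egg or 1st instar in second place and 58.4 for those with a pupa or adult. They comprised 14 genes with the 3rd instar, 9 with the 4th and 9 with the 5th. RR46_10250 had 3094 (3076 to 3113) at its peak and 926 (916 to 936) in the 4th, with 619 in the 3rd and 622 in the 5th. RR46_01573 had 1436 (1410 to 1463) in the 2nd instar, 400 (387 to 414) in the 4th, and 209 in the male adult. RR46_02585 was much lower in every other library. It had 4472 (4451 to 4493) at its peak and 32.6 (30.7 to 34.7) in the 5th, from 12.3 to 31.8 in the egg, the other instars and the pupae, and 0.145 and 0.0232 in the female and male adult. RR46_00809 had 1212 (1186 to 1240) in the 2nd instar and between 23.2 and 83.6 in every other library.

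A pupa was in second place for 18 genes, 11 of them with the female pupa and 7 with the male. RR46_10272 had 369 (364 to 375) in the 2nd instar, against 36.9 (35.2 to 38.6) in the female and 29.6 in the male pupa. Its values were 2.29 in eggs, 2.30 at the 1st instar, 0.819 at the 3rd, 1.91 at the 4th and 7.51 at the 5th, with 0.226 and 0.380 in female and male adults. The gene thus had a second, lower maximum in both pupae. RR46_03230 had 210 (207 to 213) at its peak, 9.34 (8.73 to 9.98) in the female and 3.54 in the male pupa, and at most 0.572 in the rest. RR46_04193 had 702 (689 to 716) at its peak, 9.35 for the female and 25.2 (23.0 to 27.6) for the male pupa, and at most 1.02 in the rest. RR46_12167 was at 58.4 (53.1 to 64.1) in the 2nd instar and between 1.91 and 8.36 in the 9 other libraries.

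An adult was in second place for 11 genes, 9 of them with the male adult and 2 with the female adult. RR46_12699, with 425 (418 to 432) at its peak, had 2.56 (2.08 to 3.12) in the male adult and 1.14 or less elsewhere. Like RR46_02635 above, it had a low level in the adult that came second, from 98 reads. RR46_11100, one of the genes with the female adult in second place, was by contrast abundant throughout. It had 1232 (1223 to 1240) at its peak, 408 (404 to 412) in the female and 62.4 in the male adult, and between 254 and 404 in the others.

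Genes still detected, at an RPKM of 1 or more, were counted beside the table as a whole. The rule capped the 99 genes in each of these libraries and not the table, so nothing is read from lower shares. In eggs 76 of the 99 genes were detected (76.8%, against 79.1% of all genes), and at the 1st instar 75 (75.8% against 78.5%). The 3rd instar had 56 (56.6% against 70.3% of all genes), the 4th 49 (49.5% against 72.2%) and the 5th 53 (53.5% against 71.2%). Among pupae the female had 59 (59.6% against 75.2%) and the male 55 (55.6% against 79.1%). Among adults the female had 34 (34.3% against 73.6%) and the male 45 (45.5% against 82.2%). By this count the female adult shared the fewest of the genes. At 10 reads or more in place of an RPKM of 1, the female adult had 63 of them. The male adult then had 64, the 5th instar 66 and each remaining library 71 or more.

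**Figure D4:**
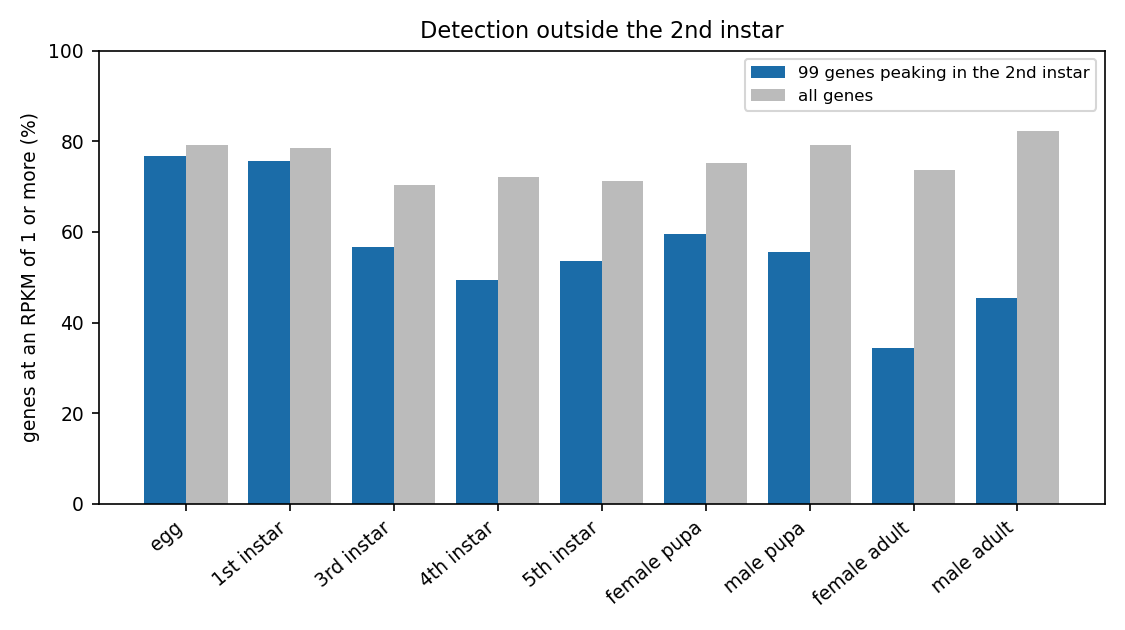
Percent of genes with an RPKM of at least 1 in each of the 9 libraries other than the 2nd instar, for the 99 genes (left bar of each pair) and for all genes of the table (right bar). The 99 genes are within 3 percentage points of all genes in the egg and 1st instar and lower in the other 7 libraries, down to 34.3% against 73.6% in the female adult. The rule capped the 99 genes in all of these libraries, so the lower shares are a description.

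Under an RPKM of 1 in both adults were 51 of the 99 genes (51.5%), against 13.5% of all genes. Under 1 in both pupae and both adults were 31 genes (31.3% against 9.12%), and under 1 in each of the 3rd, 4th and 5th instars were 36 (36.4% against 21.9%). The rule capped these libraries too, so these shares are a description. Detected in all 10 libraries were 20 genes (20.2%), against 52.2% of all genes. A further 7 genes were detected in the 2nd instar alone, with no share over all genes to set beside them. Any gene at 5 or more there and under 1 elsewhere meets the rule. In 24 genes the 9 other libraries lay within 3-fold of each other on RPKM + 1, against 20.3% of all genes. For 19 of the 24 the highest other value was under 2, where the added 1 by itself brings values close, and in 3 each of the 9 values was 1 or more. RR46_10798, chosen after its values were seen, had 87.2 in the 2nd instar and between 2.52 and 4.45 in the others.

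Differences among the other libraries were counted at a 3-fold ratio of RPKM + 1. From the 3rd instar to the 4th, 15 of the 99 genes were lower and 3 higher, against 5.52% and 5.47% of all genes. Counted only where the higher instar, here the 3rd, had an RPKM of at least 2, so that a gene could be called lower, this was 15 of 45 genes (33.3%), against 8.9% of all such genes. This minimum was added after the data were seen. From the 4th to the 5th instar 10 genes were higher and 6 lower, against 4.94% and 2.78%. With the same minimum in the 5th instar, the 10 were 24.4% of 41 genes, against 7.9% of all such genes. The 6 were 16.2% of the 37 genes with that minimum in the 4th instar, against 4.35%. From the 3rd to the 5th instar 7 genes were higher and 7 lower, against 3.51% and 2.87% of all genes, and with the minimum these were 17.1% and 15.6%, against 5.61% and 4.62%. With the minimum, shares lay above those of all genes in both directions for these pairs of late instars, with 1 exception. Genes higher in the 4th instar than in the 3rd were 8.11% with the minimum in the 4th, against 8.55%. The rule capped the 99 genes in these libraries and not the table, so these shares and the count that follows are a description. In 8 genes the 4th instar lay 3-fold or more below both the 3rd and the 5th, which was 8.08% of the 99 genes and 2.68% of all genes. RR46_03024 is one example. RR46_05137, named after its values were seen, had 378 in the 3rd instar, 1.88 in the 4th and 92.1 in the 5th, beside 3151 in the 2nd. This count was 8 with equal sums (2.05% of all genes), 8 with equal upper quartiles (3.05%) and 10 with the median ratio (3.33%). The 3rd, 4th and 5th instar libraries were of 1 animal each, so that a difference between animals and one between instars cannot be told apart.

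From the 1st instar to the 3rd, 14 genes were lower 3-fold or more (14.1%), the same percentage as the 14.1% of all genes, and 2 were higher (2.02%, against 4.01%). At the same sum 24 were lower and 1 higher, against 26.5% and 1.57% of all genes. At the same upper quartile 12 were lower and 5 higher, against 9.17% and 7.04%. In the deposited values the 14 lower genes were 22.2% of the 63 with an RPKM of at least 2 in the 1st instar. This compares with 19.6% of all such genes. The 2 higher genes were 4.44% of the 45 with that minimum in the 3rd instar, against 6.46%. The higher ones in the deposited values were RR46_10250, given above, and RR46_12752, named after its values were seen, with 32.6 in the 3rd instar, 1.38 in the 1st and 106 in the 2nd. In the female pupa 19 genes were lower and 12 higher than in the 5th instar, against 9.52% and 22.3% of all genes. In the male pupa the numbers were 20 lower and 10 higher, against 9.26% and 24.6%. Of the 41 genes that had an RPKM of at least 2 in the 5th instar, 46.3% were lower in the female and 48.8% in the male pupa, against 15.2% and 14.8% of all such genes. With that minimum in the pupa itself, the 12 higher genes were 28.6% of 42 in the female, against 32.7% of all such genes. The 10 higher genes were 25% of 40 in the male, against 34.0%. Over all genes the female pupa was above the 5th instar by a median of 0.55 on the log2 scale of RPKM + 1 and the male pupa by 0.58. At the same upper quartile, 25 of the 99 genes were lower and 10 higher in the female pupa, against 13.5% and 10.0% of all genes. At the same sum 17 were lower and 15 higher there, against 6.25% and 39.96%. For the male pupa 24 were lower and 6 higher at the same upper quartile, against 13.5% and 13.8%, and 16 lower and 13 higher at the same sum, against 6.22% and 39.1%. From female pupa to female adult 19 genes were lower and 4 higher, against 8.07% and 9.18%. The 19 were 45.2% of the 42 genes with that minimum in the female pupa, against 11.8% of all such genes. The 4 were 17.4% of the 23 genes with that minimum in the female adult, against 13.8%. From male pupa to male adult 11 were lower and 8 higher, against 8.93% and 12.2%. With the same minimum these were 27.5% and 22.9%, against 12.4% and 16.3%. Genes higher in the female and male adult than in the pupa were 4.04% and 8.08% of the 99. These lay below the shares of all genes, whereas those with the minimum lay above. The rule capped the 99 genes in all of these libraries and not the table, so these shares are a description. These pairs share libraries with each other and are not independent.

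Between the sexes, 3 genes were higher and 1 lower in the female pupa than in the male pupa, against 0.833% and 4.99% of all genes. The 3 were 7.14% of the 42 genes with an RPKM of at least 2 in the female pupa, against 1.22% of all such genes. The 1 lower gene was 2.5% of the 40 with that minimum in the male pupa, against 6.89%. In adults 3 were higher and 13 lower in the female than in the male, against 14.3% and 14.5%. The 13 were 37.1% of the 35 genes with an RPKM of at least 2 in the male adult, against 19.5% of all such genes. The 3 higher in the female adult were 13.0% of the 23 genes with that minimum there, against 21.4%. In the female pupa 1 gene was higher with equal upper quartiles (0.721% of all genes) and 0 with the median ratio (0.655%). The gene lower in the female pupa was RR46_14758, with 0.503 (19 reads) there and 34.8 (1419 reads) in the male pupa. It had 991 in the 2nd instar, 204 in the 1st, 2.54 in the 3rd and 210 in the 5th. RR46_14220 was the gene most strongly higher in the female adult, with 11.2 there and 0.208 in the male adult, beside 205 in the 2nd instar, 20.9 in the 1st, 14.8 in eggs and at most 0.170 in later instars and pupae. RR46_15001 was the most strongly lower one, with 0.343 in the female and 37.0 in the male adult, and in pupae it ran the other way, with 19.8 in the female and 5.63 in the male, a difference under 3-fold at the median ratio. RR46_14289 was at 0.481 in the female and 12.3 in the male adult, beside 54.2 in the 2nd instar.

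Length and identifier were not used by the rule. The recovered length is the shortest that the values of a gene allow. It had a median of 1155 bp in the 99 genes, with quartiles of 742.5 and 1809 bp and a range from 231 to 9123 bp, against a median of 1002 bp and quartiles of 534 and 1695 bp in the table. Of the 15123 genes in the table, 33 had a near-identical copy, that is, one of equal length and nearly equal reads in each library. None of the 99 genes was among them. Copies this rare would seldom occur in a set of 99, so nothing is read from their absence. Genes that share reads with less similar copies could not be recognised.

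Identifier numbers of the genes were in part close together. Of the 99 genes, 19 had another of them within 5 numbers, in 9 groups, and 8 had one at the next number. As percentages these are 19.2 and 8.08. Shares within 5 numbers were also taken for the other selections of 15 genes or more made in the same manner. Among instars they were 13.3% at the 3rd, 26.7% at the 4th and 39.0% at the 5th. Pupae had 16.7% (female) and 11.1% (male), and adults 23.2% (female) and 54.5% (male). Larger selections place genes closer by their size alone, the male adult having 481. Size alone did not order these shares, since the 4th instar, with 15 genes, lay above the 19.2% of the 99. A share for randomly drawn numbers was not computed, so nothing is read from these percentages. The largest group lay between numbers 4247 and 4250, and its members, named after their values were seen, include RR46_04247 and RR46_04248. RR46_04247 had 497 in the 2nd instar, 3.71 in the 1st and 1.53 in the egg, and at most 0.169 in the rest. RR46_04248 had 148 in the 2nd instar, 2.95 in the 1st and 1.55 in the egg, and at most 0.600 in the rest. In both the 2nd instar was highest, followed by the 1st instar and the egg. RR46_04249, which lies between them and the third member of the group, did not meet the rule. It had 32.7 in the 2nd instar, 88.1 in the 1st and 46.1 in the egg. Whether the numbers follow the order of genes on a chromosome is not given in the sources used here.

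The same rule applied to each of the other libraries selected 1 gene for the egg, 0 for the 1st instar, 15 each for the 3rd and 4th instars and 59 for the 5th. Female and male pupae had 24 and 63 such genes, and female and male adults 112 and 481. Among the larval libraries the 2nd instar thus had the most in the deposited values. It had 187 against 86 for the 5th instar at the same upper quartile, 224 against 90 at the median ratio, and 52 against 49 at the same sum. By their factors, scaling by upper quartile or median ratio could only raise the number for the 2nd instar, and scaling by sum could only lower it. Since a gene shared by 2 similar libraries cannot pass, the low numbers of the egg and 1st instar stand beside their likeness. The median ratio was 5.57 in both the 99 genes and the 59 of the 5th instar, and a ratio of 10 or more was reached by 29 and 12 of them.

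At the edge of the rule, the lowest ratios among the 99 genes were 3.01 in RR46_11100 and 3.05 in RR46_05727, which had an RPKM of 7.66 in the 2nd instar. Just under the ratio were RR46_09302, with 227 in the 2nd instar, 76.0 in the 1st and a ratio of 2.96, and RR46_10841, with 834, 282 and a ratio of 2.96. The lowest levels among the 99 genes were 6.93 in RR46_02347 and 6.94 in RR46_13857. Just under the minimum of 5, among genes that met the ratio, were RR46_08373 with 4.88 and RR46_05291 with 4.41. With the lower 95% counting bound of the 2nd instar set against the upper bounds of the other libraries, 84 of the 99 genes still met the rule. These bounds are approximate where reads summed over genes exceeded the library total, as in the 2nd instar.

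Membership depended on the scaling between libraries. At the same upper quartile, 187 genes met the rule, all of the 99 among them. Scaling by the median ratio to the geometric mean gave 224, again with all 99. In both cases the 2nd instar had the largest factor of the 10 libraries, 1.57 and 1.72. Its ratios could only rise, so no gene of the 99 could be lost. At the same sum only 52 genes met the rule, all of them among the 99. The 2nd instar then had the smallest factor, so no gene from outside the 99 could enter. Of the scalings tried, only this could remove any of the 99. The 52 genes are those it left, and they peaked 3-fold or more in the 2nd instar under each. They include each of the 29 genes with a ratio of 10 or more, 9 of the 17 genes whose RPKM was at least 1000, and 27 of the 38 genes with the egg or 1st instar in second place, 14 of the 32 with a later instar and 11 of the 29 with a pupa or adult. The 29 genes with a ratio of 10 or more could not drop out. At the same sum the factors were 0.556 in the 2nd instar and at most 1.60 elsewhere, which keeps such a ratio above 3. RR46_11029, RR46_06414, RR46_02661 and RR46_10395 stayed, whereas RR46_03024, RR46_14186, RR46_10250 and RR46_11100 did not.

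**Figure D5:**
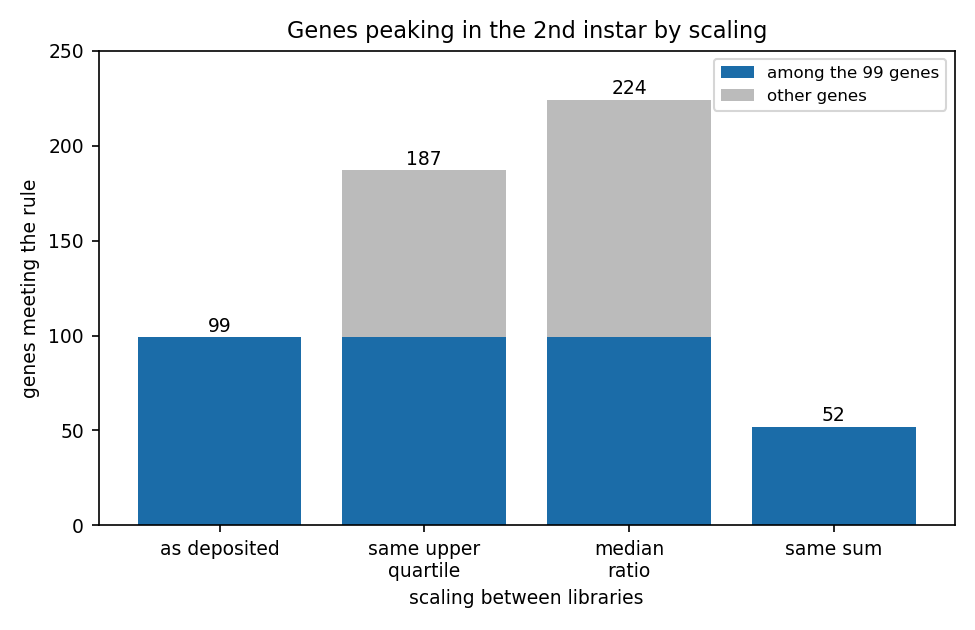
Number of genes meeting the rule with RPKM as deposited (99) and after rescaling each library to the same upper quartile (187), by the median ratio (224) and to the same sum (52), with genes among the 99 in the lower part of each bar. All 99 stay under the first and second rescalings, where the 2nd instar has the largest factor and no gene of the 99 can be lost. At the same sum, where its factor is the smallest and no other gene can enter, 52 stay.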

How the data were processed

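Poly-A RNA of whole bodies was converted to cDNA with random primers and sequenced from both ends on an Illumina instrument. The authors mapped the reads to their own *P. xuthus* assembly and gene set, and the submitters' processing notes name TopHat 1.0.12 and TopHat 1.4.1. The counting tool, use of strand and treatment of reads with several hits are not given in the sources used here. The authors deposited 1 file of RPKM values, with 10 columns. This unit takes gene length and library size into account and leaves composition uncorrected, so that a few abundant genes shift the rest.

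Groups came from the sample titles. Whole reads, lengths and totals were solved from the steps of the RPKM values (tolerance 1e-06), which gave whole reads for 100% of genes and a length that is a multiple of 3 in 99.9%. The absolute scale rests on taking 3 bp as the commonest gap between lengths. Reads served for depth and Clopper-Pearson 95% intervals only, which are approximate where reads summed over genes exceeded the total. At a gene of 1 kb, 3 reads correspond to an RPKM of 0.110 in the 2nd instar. No test was run, since each stage had 1 library. The steps were tested on simulated data. Python 3.11.15, numpy 2.4.6, pandas 2.3.3, scipy 1.17.1 and matplotlib 3.10.9 were used.

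The genes and lists were chosen with earlier results of these data known. At most 2 identifiers are printed per list: the highest 2nd instar RPKM, the highest ratio, the highest RPKM in each group of 3 or more genes with the same second-highest library, both sides of each threshold, and the largest sex differences. Copies were called near-identical at equal length when all libraries agreed within 2% or 3 reads and at least one had 100 reads. Alternatives changed the pseudocount, minimum, ratio, scaling and libraries used.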

Additional observations from a re-analysis of the deposited data

Results flagged for a closer look

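RR46_15001 was flagged because its sexes differed in opposite directions at the pupal and adult stages, by 3-fold or more each time in the deposited values. On log2(RPKM + 1) the female minus male difference was 1.65 in pupae and -4.82 in adults. In pupae it was 1.59 with equal upper quartiles, 1.78 with equal sums and 1.54 with the median ratio, the last being under 3-fold. In adults it lay between -4.90 and -4.77 under these scalings. The pupae had 5875 recovered reads in the female and 1807 in the male, and the adults had 110 in the female and 10533 in the male. No test of this change in direction was possible with 1 library for each sex and stage. It was the single gene of the 99 with such a pattern, and no count over all genes was set beside it.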

How the results depend on the processing

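Alternatives gave 121 values of 37 results, of which 18 moved past their limit (1.5-fold where the result was a count) and 103 did not. The number of genes peaking in the 2nd instar was 173 at a ratio of 2, 187 at the same upper quartile, 224 at the median ratio and 52 at the same sum, against 99. It stayed within 1.5-fold with a pseudocount of 0.1 or 5, another minimum, a ratio of 4, counting bounds, or without any 1 of the 9 other libraries. Genes with the 3rd instar in second place numbered 14, but 22 with equal upper quartiles and 4 with equal sums, and 0 by construction without that library. The median ratio, 5.57 as deposited, was 8.56 with equal upper quartiles and 3.17 with equal sums. The share of summed RPKM was 10.5% with near-identical copies kept once and 6.19% without the most abundant gene. At 10 reads or more, 63 genes were detected in the female adult. Scaling was applied to differences among the other libraries after the data were seen, and moved 6 of those 44 counts past the limit. Genes lower in the 3rd than in the 1st instar numbered 24 at the same sum. The scalings of the counts for other libraries and of RR46_15001 were likewise chosen after seeing the data. The ratio of 2 admits more genes by construction. Each scaling moved the number of genes peaking in the direction set by its factor for the 2nd instar. What moved the other values was not tested. No paired analysis was possible because each stage had 1 library. Low depth limits the values of genes with few reads.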
